A study of Mus musculus with 8 samples.

Results

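Interferon regulatory factors (IRFs) are the transcription factors that carry signals from pathogen sensors and interferon receptors to interferon genes and interferon-stimulated genes. Their 8 measured genes, Irf1, Irf2, Irf3, Irf4, Irf5, Irf7, Irf8 and Irf9, were taken by symbol from the bead array table. They carried 15 of its 25697 probes, and the table names 18138 genes in all. Every IRF probe was detected on at least 2 arrays and was therefore tested, among 13868 probes of 10163 genes.

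The cells were macrophages grown for 7 days in GM-CSF, a myeloid growth factor (10 ng/ml), from bone marrow of female 8-week-old mice. The mice are given as C57bl/6J, either WT or lacking inducible nitric oxide synthase (iNOS-/-, the Nos2tm1Lau allele). The authors' methods list WT and iNOS-/- mice as separate stocks with different strain names, so strain and genotype cannot be told apart. Cells of either genotype were left unstimulated or turned into inflammatory M1 macrophages with LPS (200 ng/ml), a bacterial ligand of TLR4, and IFN-γ (10 ng/ml) for 6 h, which gave 4 groups of 2 arrays. iNOS makes nitric oxide in such cells, and the comparisons ask how its loss alters the M1 programme. The labels do not say whether the 2 arrays of a group came from separate mice or cultures, so p-values measure only the spread between arrays, which may be technical.

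In this family IRF3 and IRF7 are phosphorylated by the kinases TBK1 and IKKε and switch on type I interferon genes. IRF9 is the DNA-binding part of the complex ISGF3, which forms after interferon receptors are engaged and binds interferon-stimulated genes. IRF1 is induced by IFN-γ and activates its targets, while IRF2 binds the same sites and is mainly known as a repressor. IRF4 and IRF8 act with the ETS factor PU.1 or with BATF proteins in myeloid and lymphoid cells, and IRF5 acts below MyD88 on inflammatory cytokine genes.

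Each array detected 11833 to 12673 probes, 46.0 to 49.3% of those present. Arrays of the same group differed by a median of 0.16 to 0.19 on the log2 scale. The unstimulated iNOS-/- arrays lay nearer to the WT M1 arrays, at a median difference of 0.34 to 0.36, than to the WT unstimulated arrays, at 0.48 to 0.49. Nos2 itself was undetected on all unstimulated arrays, and its log2 level differed by 0.32 ± 0.32 (SE, n = 2 arrays per group) between the M1 groups, with iNOS-/- above WT (limma adjusted p = 0.445). The sources used here do not place this probe inside or outside the altered part of the allele, so it does not check the genotype labels.

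Levels are given as log2 of the scaled bead intensity, differences as log2 differences ± SE from limma with n = 2 arrays per group, and a gene is called when its p-value adjusted over all tested probes is under 0.05. Bead intensity depends on the probe, so levels are compared between groups and never between genes. Where several probes read a gene, the brightest one is used. In these cultures, fewer cells of a type and less RNA per cell cannot be told apart.

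The probe sequences below are those that carry the family's repeated measurements and its largest response. Irf1 was read by 5 probes, of which the first 2 printed here share the 49 bases in capitals and are hardly independent. Irf7 was read by a single probe, Irf9 by 2 and Irf3 by 3, and 1 of each is shown. Apart from Irf7, the probes shown are not the brightest ones used for the levels. The separate Irf1 probe was the dimmest of its gene and was detected on 7 arrays.
Irf1, first overlapping probe: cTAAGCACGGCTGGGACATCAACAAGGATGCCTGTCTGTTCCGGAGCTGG
Irf1, second overlapping probe: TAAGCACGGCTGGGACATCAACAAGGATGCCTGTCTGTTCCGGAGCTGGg
Irf1, separate probe: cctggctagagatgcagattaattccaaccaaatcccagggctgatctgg
Irf7: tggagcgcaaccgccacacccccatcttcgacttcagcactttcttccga
Irf9, second probe: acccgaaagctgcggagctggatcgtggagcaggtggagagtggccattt
Irf3, second probe: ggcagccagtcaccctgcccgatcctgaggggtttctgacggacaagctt

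In WT cells, LPS plus IFN-γ raised 6 of the 8 IRF genes, Irf1, Irf4, Irf5, Irf7, Irf8 and Irf9, and lowered none. Irf2 and Irf3 were not called. Of all tested probes, 35.1% were called in this comparison, 20.8% higher and 14.3% lower. The median log2 difference was 1.07 over the 8 genes and 0.09 over all tested probes. In iNOS-/- cells the same stimulus raised Irf1, Irf2, Irf5, Irf7, Irf8 and Irf9, lowered Irf4 by a margin at the threshold, and left Irf3 uncalled. There 50.3% of probes were called, 25.2% higher and 25.1% lower, and the medians were 1.21 over the IRF genes and 0.00 over all tested probes. The M1 and unstimulated arrays did not overlap for 6 of the 8 genes in WT cells, beside 71.3% of all tested probes, and for 7 of the 8 in iNOS-/- cells, beside 77.2%.

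**Figure D1:**
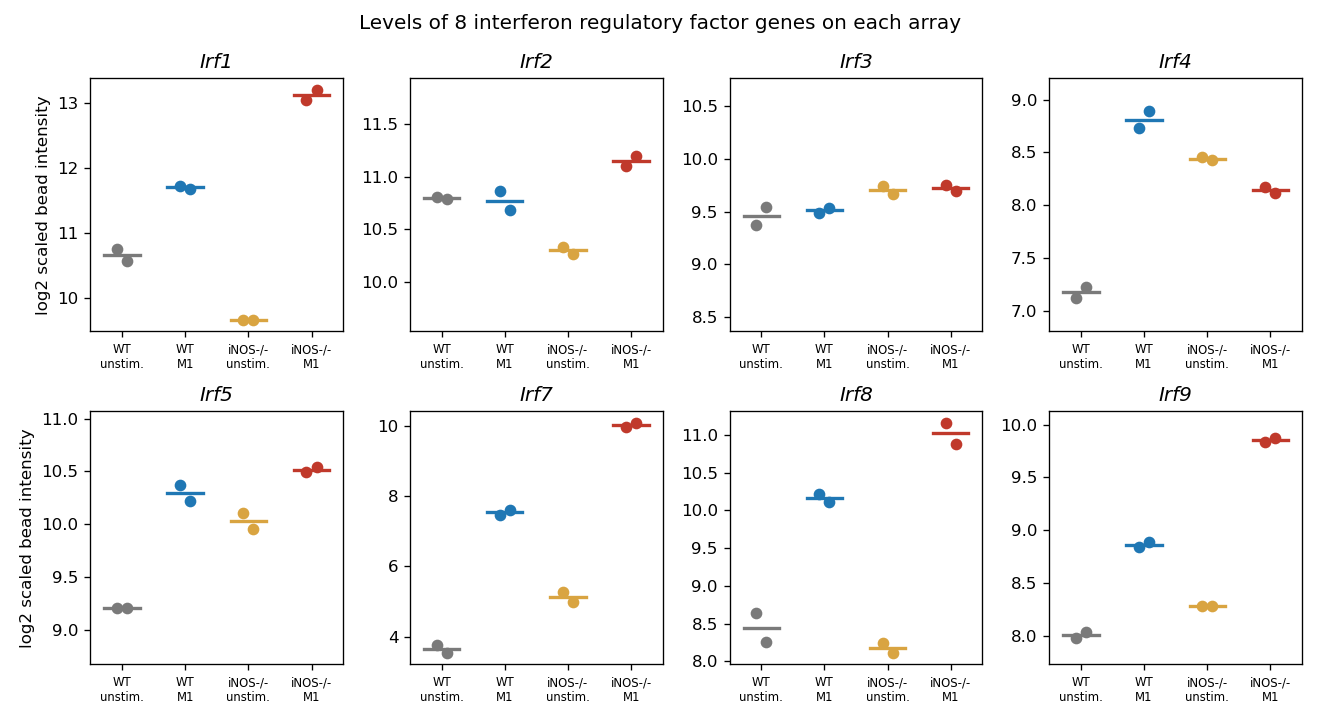
Log2 scaled bead intensity of each IRF gene (brightest probe) on each of the 8 arrays. Points are arrays and bars are means of 2 arrays; each panel has its own vertical scale. Irf1, Irf7, Irf8 and Irf9 were highest in iNOS-/- M1 cells, while Irf4 was highest in WT M1 cells.

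Irf7, the interferon-induced factor that amplifies type I interferon production, had the largest response. Its levels were 3.76 and 3.54 in WT unstimulated cells, 7.48 and 7.61 in WT M1 cells, 5.26 and 4.98 in iNOS-/- unstimulated cells, and 9.98 and 10.09 in iNOS-/- M1 cells. No groups overlapped, and the order ran from WT unstimulated through iNOS-/- unstimulated and WT M1 to iNOS-/- M1. Stimulation raised Irf7 by 3.90 ± 0.14 in WT cells (14.9-fold, adjusted p = 7.25e-05) and by 4.92 ± 0.14 in iNOS-/- cells (30.3-fold, adjusted p = 2.8e-05). Irf7 was detected on all 8 arrays, but its WT unstimulated values lay close to background. After neqc normalization its response was 2.72 in WT and 4.17 in iNOS-/- cells, and with a raised floor of 16 the WT response was 3.55.

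Irf3, which shares its kinases with IRF7 but is present before stimulation, was not called in any of the 5 comparisons. Its levels were 9.38 and 9.54 in WT unstimulated, 9.49 and 9.53 in WT M1, 9.74 and 9.67 in iNOS-/- unstimulated, and 9.75 and 9.70 in iNOS-/- M1 cells. M1 and unstimulated arrays overlapped in both genotypes. The log2 difference on stimulation was 0.05 (95% interval −0.18 to 0.29) in WT and 0.02 (−0.22 to 0.26) in iNOS-/- cells, and after neqc normalization the latter was −0.35 (adjusted p = 0.0109). The other 2 Irf3 probes followed the brightest one weakly over the 8 arrays, with Pearson's r of 0.365 and 0.689, and were not called either. The within-array log2 ratio of Irf7 to Irf3 went up by 3.84 on stimulation in WT cells and by 4.90 in iNOS-/- cells. Such a ratio cancels a scaling factor common to the array, but not the background. As Irf7 lay close to background in WT unstimulated cells, the WT value depends on how background is handled.

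Irf9, which gives ISGF3 its sequence preference, rose in both genotypes. It was at 7.98 and 8.04 in WT unstimulated, 8.84 and 8.89 in WT M1, 8.28 and 8.28 in iNOS-/- unstimulated, and 9.83 and 9.87 in iNOS-/- M1 cells. The 4 groups were apart, in the same order as for Irf7. Its response was 0.85 ± 0.08 in WT (adjusted p = 0.0013) and 1.57 ± 0.08 in iNOS-/- cells (adjusted p = 9.5e-05). The second Irf9 probe gave 1.07 ± 0.17 and 1.81 ± 0.17, and its levels followed the first with r = 0.986 over the 8 arrays.

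Irf1, the IFN-γ-induced activator, responded more strongly in iNOS-/- than in WT cells. Its levels were 10.75 and 10.57 in WT unstimulated, 11.73 and 11.68 in WT M1, 9.67 and 9.67 in iNOS-/- unstimulated, and 13.05 and 13.20 in iNOS-/- M1 cells. The iNOS-/- arrays therefore held both the lowest and the highest Irf1 levels, with the WT arrays between them. Stimulation raised Irf1 by 1.05 ± 0.11 in WT (2.06-fold, adjusted p = 0.00179) and by 3.45 ± 0.11 in iNOS-/- cells (adjusted p = 3.05e-05). All 5 probes were called in both genotypes, with responses of 1.05 to 1.67 (WT) and 3.45 to 4.63 (iNOS-/-).

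**Figure D2:**
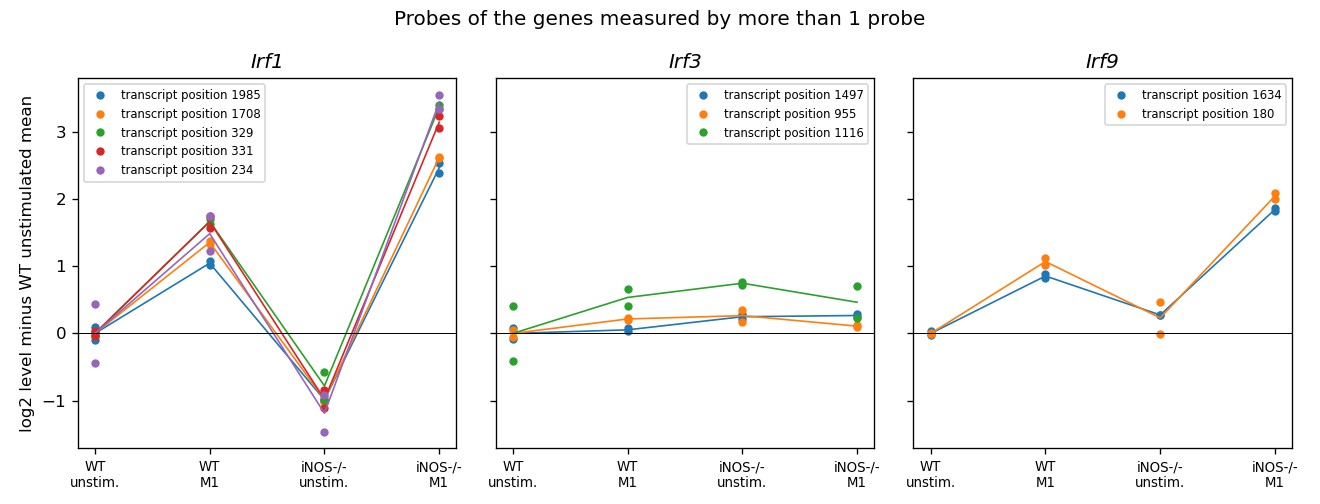
Log2 level of every probe of Irf1, Irf3 and Irf9 relative to that probe's WT unstimulated mean, by group; points are arrays, lines join the means of 2 arrays, and legends give the transcript position as deposited. The 5 Irf1 probes share 1 pattern (r from 0.981 to 0.996 with the brightest), whereas the 3 Irf3 probes differ among themselves.

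Irf2, the counterpart of Irf1 at shared sites, was at 10.80 and 10.79 in WT unstimulated, 10.86 and 10.68 in WT M1, 10.33 and 10.27 in iNOS-/- unstimulated, and 11.10 and 11.20 in iNOS-/- M1 cells. The WT groups overlapped, and the iNOS-/- groups lay on either side of them. The WT response was −0.03 (95% interval −0.27 to 0.22, adjusted p = 0.858), with a sign that changed with the scaling. In iNOS-/- cells Irf2 rose by 0.85 ± 0.10 (1.80-fold, adjusted p = 0.0014). The within-array log2 ratio of Irf1 to Irf2 went up by 1.07 in WT and by 2.60 in iNOS-/- cells.

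Irf8, a myeloid lineage factor that IFN-γ also induces, rose in both genotypes. It was at 8.64 and 8.26 in WT unstimulated, 10.21 and 10.11 in WT M1, 8.24 and 8.11 in iNOS-/- unstimulated, and 11.16 and 10.89 in iNOS-/- M1 cells. The 4 groups did not overlap, although the gap between the unstimulated groups was smaller than the spread within WT unstimulated cells. Irf8 rose by 1.71 ± 0.17 in WT (3.28-fold, adjusted p = 0.00168) and by 2.85 ± 0.17 in iNOS-/- cells (7.19-fold, adjusted p = 0.000161).

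Irf4, its closest relative, did the opposite in iNOS-/- cells. It was at 7.12 and 7.23 in WT unstimulated, 8.73 and 8.89 in WT M1, 8.46 and 8.43 in iNOS-/- unstimulated, and 8.17 and 8.12 in iNOS-/- M1 cells. No groups overlapped, and WT unstimulated cells stood far below the other groups. Irf4 rose by 1.64 ± 0.10 in WT cells (3.11-fold, adjusted p = 0.000297) and fell by 0.30 in iNOS-/- cells (SE 0.10, adjusted p = 0.0499). That fall was negative under all 17 alternative settings, but in 10 of them it was no longer called, with adjusted p reaching 0.163. The within-array log2 ratio of Irf8 to Irf4 changed by 0.07 on stimulation in WT cells, where the groups overlapped, and by 3.14 in iNOS-/- cells.

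Irf5, the factor below MyD88, was raised in both genotypes. It was at 9.20 and 9.20 in WT unstimulated, 10.38 and 10.22 in WT M1, 10.10 and 9.96 in iNOS-/- unstimulated, and 10.49 and 10.54 in iNOS-/- M1 cells. The WT unstimulated arrays were lowest and the other groups lay close together without overlapping. Irf5 rose by 1.10 ± 0.10 in WT (2.14-fold, adjusted p = 0.00127) and by 0.49 ± 0.10 in iNOS-/- cells (1.40-fold, adjusted p = 0.0107), and the latter value was 0.00 after neqc or quantile normalization.

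**Figure D3:**
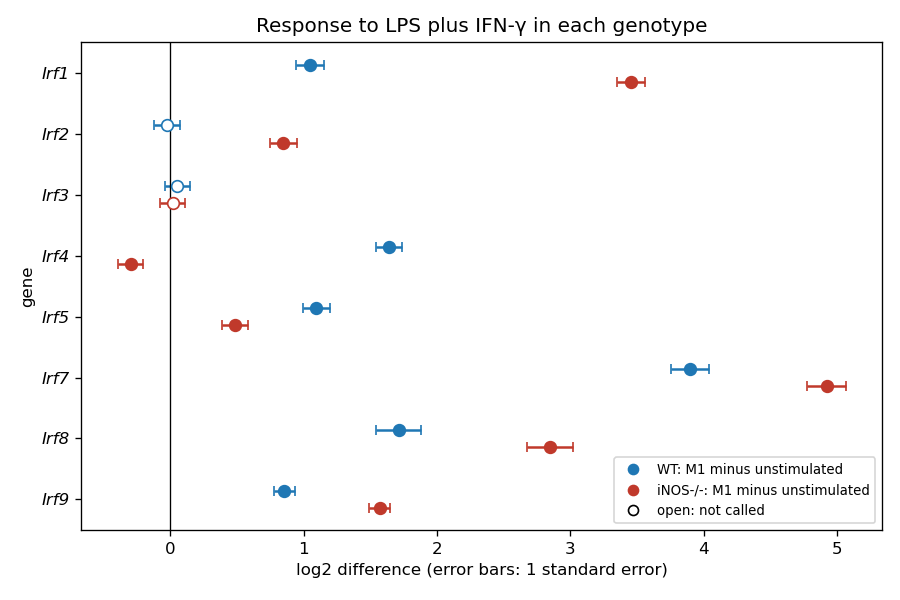
Log2 difference between M1 and unstimulated cells for each IRF gene, in WT (blue) and iNOS-/- cells (red); error bars are 1 SE from limma, and open symbols were not called. Irf1, Irf2, Irf7, Irf8 and Irf9 moved further up in iNOS-/- cells, and Irf4 and Irf5 did not.

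Whether the response itself differed between genotypes was tested as an interaction, iNOS-/- response minus WT response. It was called for 7 of the 8 genes, 5 higher and 2 lower, beside 42% of all tested probes, 19.4% higher and 22.6% lower. Its median was 0.80 over the IRF genes and −0.05 over all tested probes. The response was larger in iNOS-/- cells for Irf1 by 2.41 ± 0.15 (adjusted p = 0.00047), for Irf8 by 1.13 ± 0.24 (adjusted p = 0.0153), for Irf7 by 1.02 ± 0.20 (adjusted p = 0.0126), for Irf2 by 0.88 ± 0.14 (adjusted p = 0.00623) and for Irf9 by 0.71 ± 0.11 (adjusted p = 0.00569). It was smaller for Irf4, at −1.94 ± 0.14 (adjusted p = 0.000603), and for Irf5, at −0.61 ± 0.14 (adjusted p = 0.0203). For Irf3 it was −0.03 (95% interval −0.37 to 0.30). Over the alternative settings 5 to 7 genes were called. The call was lost for Irf2 after neqc or quantile normalization (lowest value 0.32, adjusted p up to 0.153), for Irf5 when any of 5 arrays was left out (adjusted p up to 0.0643), and for Irf8 in 3 settings (adjusted p up to 0.0736). The second Irf9 probe gave 0.74 ± 0.24, which was not called (adjusted p = 0.0533).

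In unstimulated cells, iNOS-/- exceeded WT for Irf7 by 1.47 ± 0.14 (adjusted p = 0.00168, 0.74 after neqc), for Irf4 by 1.27 ± 0.10 (adjusted p = 0.000769), for Irf5 by 0.83 ± 0.10 (adjusted p = 0.00321) and for Irf9 by 0.28 ± 0.08 (adjusted p = 0.0479). Irf1 was lower in iNOS-/- cells, at −0.99 ± 0.11 (adjusted p = 0.00224), and so was Irf2, at −0.50 ± 0.10 (adjusted p = 0.0162). Irf8, at −0.27 ± 0.17, and Irf3, at 0.25 ± 0.09, were not called, although Irf3 was called higher in 4 of 17 alternative settings (up to 0.38, adjusted p down to 0.0108). Thus 6 of 8 genes were called, 4 higher and 2 lower, beside 32.2% of all tested probes, 16.7% higher and 15.4% lower. The arrays of the genotypes did not overlap for any of the 8 genes, beside 69.8% of all tested probes.

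For Irf4 and Irf5, the level in unstimulated iNOS-/- cells was already close to that of stimulated WT cells. The Irf4 mean was 8.44 in unstimulated iNOS-/- cells and 8.81 in WT M1 cells, and the Irf5 means were 10.03 and 10.30. The call for Irf9 in unstimulated cells was lost in 10 of 17 alternative settings, and its second probe, at 0.23 ± 0.17, was not called. Of the 5 Irf1 probes 4 were called lower, and the dimmest, at −1.19 ± 0.37, was not (adjusted p = 0.0627).

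Among M1 cells, iNOS-/- exceeded WT for 5 of the 8 IRF genes and was lower for 1, beside 48.2% of all tested probes, 22.9% higher and 25.3% lower. The median difference was 0.62 over the IRF genes and −0.03 over all tested probes. Irf7 differed most, by 2.49 ± 0.14 (5.62-fold, adjusted p = 0.000262), followed by Irf1, by 1.42 ± 0.11 (2.67-fold, adjusted p = 0.000467), and Irf9, by 0.99 ± 0.08 (1.99-fold, adjusted p = 0.000535). Irf8 was higher by 0.86 ± 0.17 (1.82-fold, adjusted p = 0.0102). Irf4 was lower, at −0.67 ± 0.10 (0.631-fold, adjusted p = 0.00355).

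Irf2, Irf3 and Irf5 depended on the scaling in this comparison. Irf2 was called higher by 0.38 ± 0.10 (adjusted p = 0.026), but was at −0.06 after neqc or quantile normalization. Irf5 was not called, at 0.22 (95% interval −0.03 to 0.47, adjusted p = 0.127), and was at −0.17 after either normalization, although both iNOS-/- arrays lay above both WT arrays. The M1 arrays of the genotypes were apart for all 8 IRF genes and for 74.8% of all tested probes. Irf3 was at 0.21 (95% interval −0.02 to 0.45), and its other 2 probes were at −0.11 and −0.07.

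**Figure D4:**
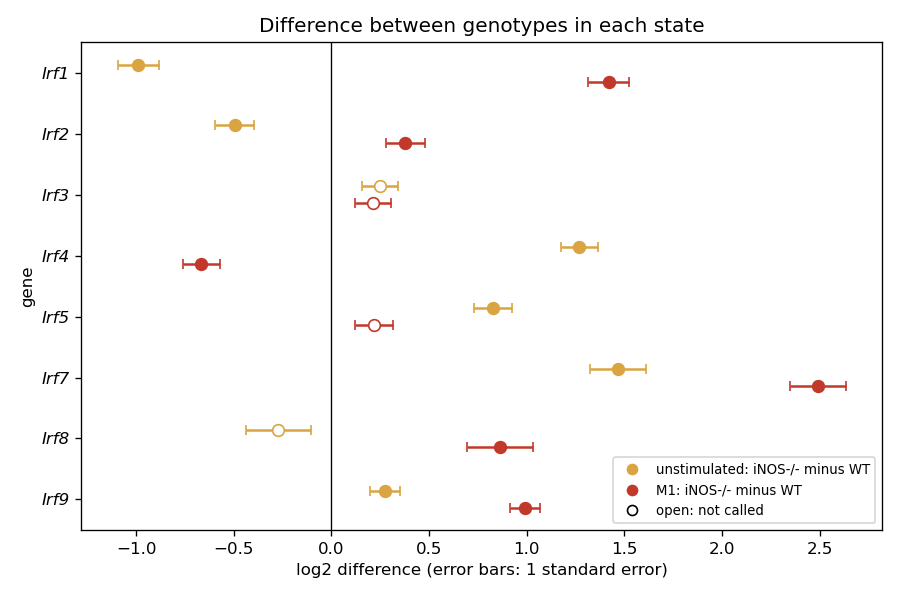
Log2 difference between iNOS-/- and WT cells for each IRF gene, unstimulated (yellow) and M1 (red); error bars are 1 SE from limma, and open symbols were not called. Irf1 changed from lower to higher in iNOS-/- cells, as did Irf2 except after neqc or quantile normalization, and Irf4 from higher to lower, while Irf7 and Irf9 were higher in both states.

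Promoter windows of 300 bases, from 250 before to 50 after each RefSeq transcription start (GRCm38.p6), were searched on both strands for TTCNNNGAA, the GAS motif of IFN-γ-responsive promoters, and for GAAANNGAAA, a core of the ISRE bound by IRFs and ISGF3. These are printed because IFN-γ was part of the stimulus. The GAS letters were present in a window of Irf1, Irf2 and Irf8, and in 9.55% of 27025 genes (8.30% of 32851 windows). Among the 8 genes the ISRE-like letters were present only for Irf2, and in 3.99% of genes (3.44% of windows). Stretches of the windows are printed 5′ to 3′ on the plus strand, the sense strand of these genes, with the matches in capitals.
Irf1, chr11:53769904-53769952, 90 bases before the start: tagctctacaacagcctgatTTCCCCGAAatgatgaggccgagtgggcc
Irf8, chr8:120736167-120736215, 171 bases before the start: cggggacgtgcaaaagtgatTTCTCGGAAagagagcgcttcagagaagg
Irf2, chr8:46739501-46739549, 224 bases before the start: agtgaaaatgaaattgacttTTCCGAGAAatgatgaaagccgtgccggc
Irf2, ISRE-like, chr8:46739495-46739533, 241 bases before the start: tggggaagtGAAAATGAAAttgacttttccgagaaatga
The Irf8 window held a second GAS match 153 bases before the start. Irf1, Irf2 and Irf8 were also the 3 members whose unstimulated log2 difference, iNOS-/- minus WT, was below 0 (−0.99, −0.50 and an uncalled −0.27), which was noticed after the values were known. A match is a description of letters and says nothing about binding in these cells.

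The proteins that IRFs pair with were read from a list of 10 genes, all tested. In WT cells 6 rose and none fell, and in iNOS-/- cells 6 rose and 2 fell, with median log2 differences of 0.87 and 1.75. The shares of all probes called in these comparisons were 35.1% and 50.3%, and their medians 0.09 and 0.00. Stat2, a partner of IRF9 in ISGF3, rose by 1.61 ± 0.12 in WT and by 2.38 ± 0.12 in iNOS-/- cells. It was higher in iNOS-/- than WT M1 cells by 1.51 ± 0.12, and its interaction was 0.77 ± 0.17, a call that was lost in 5 of 16 settings (adjusted p up to 0.0639).

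The BATF proteins, which bind DNA beside IRF4 and IRF8, moved in different directions. Batf2 rose by 4.60 ± 0.13 in WT and 4.84 ± 0.13 in iNOS-/- cells, and Batf rose by 1.68 ± 0.14 in iNOS-/- cells. Batf3 rose by 0.76 ± 0.14 in WT, a call lost in 3 of 17 settings, and fell by 0.71 (SE 0.14) in iNOS-/- cells. Spi1, which encodes PU.1, rose by 0.71 ± 0.16 in WT cells (adjusted p = 0.0208, not called in 4 of 17 settings) and was at −0.25 between the M1 groups (not called). Id2, a regulator of dendritic cell development, was higher in iNOS-/- than WT M1 cells by 1.76 ± 0.10.

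Upstream of the IRFs, 17 of 18 listed adaptors and kinases were tested. In WT cells 3 rose and 3 fell, beside 35.1% of all probes called, and in iNOS-/- cells 10 rose and 4 fell, beside 50.3%. Tbk1, a kinase of IRF3 and IRF7, was at −0.11 in WT (not called) and rose by 0.996 (SE 0.09, adjusted p = 0.000513) in iNOS-/- cells. It was higher in iNOS-/- than WT M1 cells by 0.79 ± 0.09, and by 0.37 to 0.86 over the settings. Ikbke, which encodes IKKε, rose by 0.82 ± 0.10 and 1.60 ± 0.10, and Myd88, the adaptor above IRF5, by 1.02 ± 0.10 and 1.54 ± 0.10.

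Some other upstream members were lower in iNOS-/- M1 cells. Tlr4, the LPS receptor, fell by 1.87 (SE 0.13) on stimulation in iNOS-/- cells and differed from WT M1 cells by −2.20 ± 0.13. Cd14 and Ly96, the TLR4 partner, are on the same list and had higher means in iNOS-/- M1 cells. The iNOS-/- and WT M1 means were 12.97 and 11.52 for Cd14, and 8.88 and 8.35 for Ly96. Mavs, the adaptor of cytosolic RNA sensors, differed from WT M1 cells by −1.73 ± 0.12. Between the M1 groups the list had 9 genes higher and 4 lower in iNOS-/- cells, beside 48.2% of all tested probes called. In unstimulated cells it had 0 higher and 9 lower, beside 32.2%, with Ly96 at −1.15 ± 0.11.

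Of 8 listed interferon, interferon receptor and JAK kinase genes 7 were tested. Ifnb1, a target of IRF3 and IRF7, was undetected in both unstimulated groups and rose at least 9.95-fold in WT and at least 33.4-fold in iNOS-/- cells. Such a bound sets the M1 mean against the lowest detected signal of each array, or the probe's own value where that was higher. Between the M1 groups Ifnb1 was higher in iNOS-/- cells by 1.58 ± 0.38 (adjusted p = 0.0206), a call that was lost in 6 of 16 settings (adjusted p up to 0.152). Ifngr1, the ligand-binding chain of the IFN-γ receptor, fell by 2.17 (SE 0.11) in iNOS-/- cells on stimulation and had an interaction of −2.45 ± 0.16. Jak2, which signals from that receptor, rose by 3.37 ± 0.12 in WT and 1.95 ± 0.12 in iNOS-/- cells. Its unstimulated mean was 7.67 in WT and 10.45 in iNOS-/- cells, and among M1 cells it was higher in iNOS-/- by 1.36. In all, 3 rose and 1 fell in WT cells, and 6 rose and 1 fell in iNOS-/- cells. Between the M1 groups 6 were higher and 1 lower in iNOS-/- cells. The shares of all tested probes called in these comparisons were 35.1%, 50.3% and 48.2%.

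Inhibitors of IRFs and interferon signalling were represented by 12 tested genes of 16 listed. In WT cells 7 rose and 3 fell, beside 35.1% of all tested probes called, and in iNOS-/- cells 8 rose and 2 fell, beside 50.3%. Usp18, which blocks the type I interferon receptor, rose by 2.84 ± 0.08 and 4.02 ± 0.08, and Socs1, an inhibitor of JAK kinases, by 2.24 ± 0.20 and 2.52 ± 0.20. Ube2l6, which helps attach ISG15 to proteins, rose by 3.22 ± 0.10 in iNOS-/- cells. Irf2bpl, a relative of the IRF2-binding co-repressors, fell in both genotypes, by 1.18 (SE 0.12) in WT and by 3.03 (SE 0.12) in iNOS-/- cells.

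Of 20 type I interferon-stimulated genes, the targets of IRF7 and ISGF3, 16 were tested and 15 of these were higher in iNOS-/- than WT M1 cells, with a median of 1.74. In unstimulated cells 8 were higher and 1, Rsad2, was lower, at −0.59 ± 0.09 (not called in 1 of 17 settings). Isg15, a ubiquitin-like modifier, was higher in M1 cells by 2.25 ± 0.14, Oasl1 by 2.29 ± 0.30 and Ifih1, an RNA sensor, by 2.34 ± 0.30. The interaction was called higher for 10 of the 16 and lower for none, and was 2.17 ± 0.13 for Rsad2, an antiviral enzyme. The shares of all tested probes called higher were 22.9% between the M1 groups, 16.7% in unstimulated cells and 19.4% in the interaction.

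Of 19 tested IFN-γ and IRF1 targets, 17 were higher in iNOS-/- M1 cells, with a median of 1.04, and none was lower. Gbp5, a GTPase, was higher by 2.09 ± 0.11, Cxcl10, a chemokine, by 0.94 ± 0.14 and Psmb9, an immunoproteasome subunit, by 1.54 ± 0.15. In contrast to Irf1 itself, 12 of the 19 were higher in unstimulated iNOS-/- cells and 2 lower. Of all tested probes, 22.9% were higher between the M1 groups, and 16.7% were higher and 15.4% lower in unstimulated cells. Ciita, the master regulator of MHC class II genes, exceeded WT by 3.61 ± 0.11 before stimulation and by 0.76 ± 0.11 in M1 cells, and its interaction was −2.84 ± 0.15.

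All 8 cytokine genes linked to IRF5 were higher in iNOS-/- M1 cells, with a median of 1.98, while Irf5 was not called. Of these genes Il10 was detected on only 2 of the 8 arrays, the fewest that allow a test, and Il12b on 3. Their calls therefore rest on few detected values. Il12b was higher by 3.22 ± 0.43, although only 1 of the 2 WT M1 arrays detected it (2.09 to 3.61 over the settings). Il23a was higher by 2.11 ± 0.16, Il12a by 2.51 ± 0.37 and Tnf by 1.08 ± 0.13. Before stimulation 5 were called higher and none lower, and Il1b was higher by 2.40 ± 0.12. The shares of all tested probes called higher were 22.9% between the M1 groups and 16.7% before stimulation.

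Among 12 tested genes linked to IRF4 and IRF8, unstimulated iNOS-/- cells had 7 higher and none lower, and iNOS-/- M1 cells had 5 higher and 3 lower than WT M1 cells. Cd209a, a lectin of monocyte-derived dendritic cells, was detected in WT M1 and iNOS-/- unstimulated cells and undetected in the other groups, and was at least 4.21-fold lower in iNOS-/- than WT M1 cells. Klf4, a factor that acts with IRF4 and IRF8 in myeloid differentiation, was lower in iNOS-/- M1 cells, at −3.77 ± 0.30. The interaction was called higher for 2 and lower for 6 of these genes. The shares of all tested probes called were 32.2% in unstimulated cells, 48.2% between the M1 groups and 42% in the interaction.

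**Figure D5:**
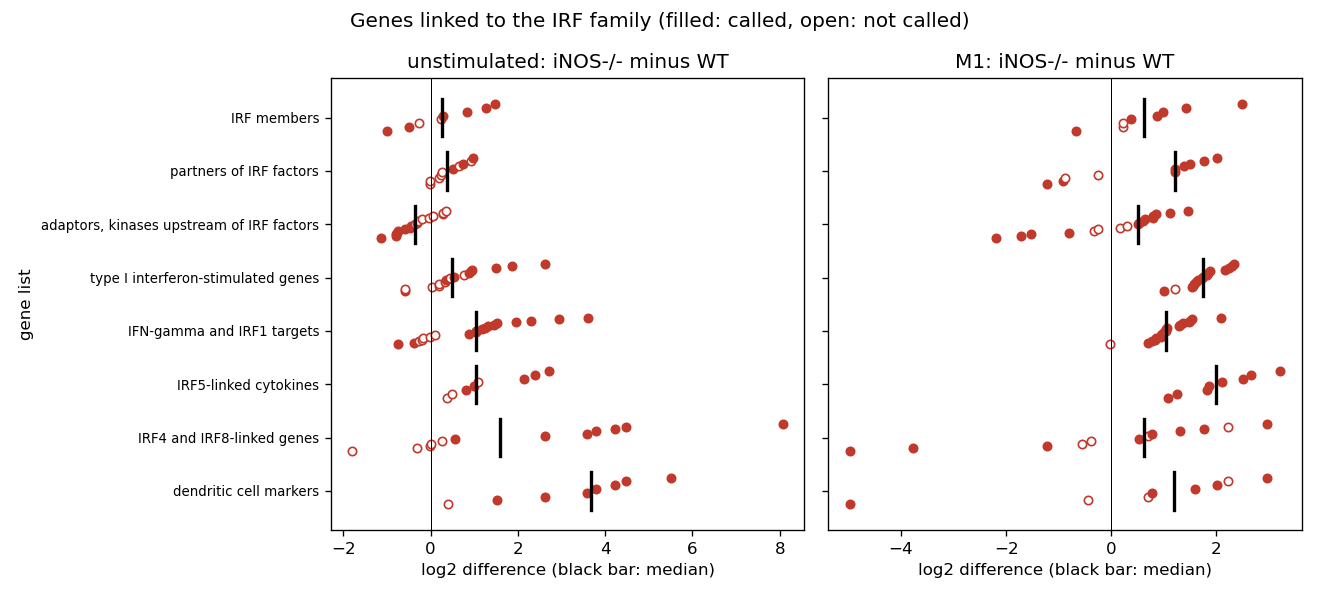
Log2 difference between iNOS-/- and WT cells for the tested genes of each list, unstimulated (left) and M1 (right); filled points were called, open points were not, and black bars are list medians. Fitted values are drawn also where a gene was undetected in a group. Nearly all type I interferon-stimulated genes and all 8 IRF5-linked cytokines lie to the right of 0 in M1 cells.

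Markers of other cell states moved with these groups. Several dendritic cell markers also stand in the IRF4 and IRF8 list. In unstimulated cells 7 of 8 tested genes were higher in iNOS-/- than in WT, beside 16.7% of all tested probes. Between the M1 groups 4 were higher, 1 lower and 3 not called, beside 22.9% of probes higher and 25.3% lower. Beside 19.4% of probes higher and 22.6% lower, the interaction was called higher for 0 and lower for 5 of these markers. Their summed scaled intensity was 947 to 966 in WT unstimulated, 16689 to 17317 in WT M1, 14002 to 14890 in iNOS-/- unstimulated and 36966 to 38750 in iNOS-/- M1 cells, while the dendritic progenitor marker Flt3 was undetected throughout. All 9 tested dividing-cell markers were higher in unstimulated iNOS-/- cells, beside 16.7% of all tested probes. Beside 25.3% of probes lower and 22.9% higher, 8 of these markers were lower and 1 higher in iNOS-/- M1 than WT M1 cells. Their sums were 732 to 817, 2261 to 2375, 2694 to 2732, and 961 on both arrays, in the same order of groups. As for Irf4, they were lowest in WT unstimulated cells and next lowest in iNOS-/- M1 cells. The highest sums were in iNOS-/- unstimulated cells, whereas Irf4 was highest in WT M1 cells.

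All 12 macrophage markers were tested. In iNOS-/- M1 cells 3 were higher and 6 lower than in WT M1 cells, beside 22.9% and 25.3% of all tested probes. The sums were 32996 to 33184 in WT unstimulated and 35012 to 37103 in WT M1 cells. In iNOS-/- cells they were 26028 to 26939 unstimulated and 38267 to 39351 in M1 cells, the highest of the groups. That rank rests on Cd14, at a scaled 8296 and 7741 in iNOS-/- M1 against 3000 and 2867 in WT M1 cells. The gap in Cd14 was wider than the gap between the M1 sums. The 6 tested granulocyte markers summed to 1122 to 1145, 1363 to 1465, 1672 to 1731 and 3768 to 3918 in the same order of groups. All 7 listed lymphocyte markers were undetected or had no probe, so Irf4 and Irf8, which lymphocytes also express, were measured without detected lymphocyte markers beside them. The part of these cell states in the IRF values was not tested.

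For each IRF gene, the 2 probes with the most similar levels over the 8 arrays were sought among those detected on every array. These correlations describe 4 groups more than 8 independent points. Irf7 was followed most closely by Usp18 (r = 0.999) and Upp1 (0.999), Irf9 by Ikbkg (0.999) and AA467197 (0.999), and Irf8 by Rsad2 (0.995) and Tyki (0.995). Irf1 was followed by Timp1 (0.996) and Furin (0.995), Irf5 by Cish (0.994) and Cenpt (0.993), Irf4 by Tmem176a (0.991) and Sfxn1 (0.990), and Irf2 by Optn (0.991) and Lox (0.989). The values were lowest for Irf3, with Csda (0.966) and Nt5c (0.964).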

How the data were processed

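RNA samples were hybridised to 8 Illumina bead arrays. For each probe the authors deposited a bead-averaged intensity without normalization and a detection p-value. The header names no background subtraction, but undetected probes lay around 0 (25.2 to 27.2% of values below 0), so none was added. The submitters' processing notes name GenomeStudio and limma 3.14.4. Here intensities were scaled to the mean array over rank-invariant probes (ranks within 0.05, between 0.5 and 0.9 of all probes; robust line, MASS 7.3.60.0.1, factors 0.813 to 1.30), set to at least 1 and log2 transformed. Probes detected (p-value under 0.05) on 2 or more arrays were fitted in limma 3.58.1 (R 4.3.3) with 4 groups and Benjamini-Hochberg adjustment over 13868 probes per comparison. The code was tested on simulated data. The number of arrays limits the precision.

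The IRF genes and all lists were chosen with earlier results of these data known. Other genes named are preselected partners, regulators and targets, up to 2 called genes with the largest change per list and comparison, and the 2 nearest probes by correlation. Alternatives covered normalization, floor, detection filter, arrays fitted, replicate block, intensity trend, averaging of probes and leaving out each array. 0 value columns lacked a sample. A preselected gene is not reported here. RefSeq promoters (GRCm38.p6) matched all 8 genes.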

Additional observations from a re-analysis of the deposited data

Results flagged for a closer look

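For 7 of the 8 IRF genes the response to LPS plus IFN-γ differed between WT and iNOS-/- cells in the interaction term of limma (adjusted p under 0.05). The iNOS-/- response minus the WT response was 2.41 for Irf1, 1.13 for Irf8, 1.02 for Irf7, 0.88 for Irf2 and 0.71 for Irf9 on the log2 scale. It was −1.94 for Irf4 and −0.61 for Irf5. Irf4 is the gene of the family whose response was called in opposite directions. Both WT M1 arrays were above both WT unstimulated arrays, and both iNOS-/- M1 arrays below both iNOS-/- unstimulated arrays. Arrays were apart in these comparisons for 71.3% (WT) and 77.2% (iNOS-/-) of all tested probes. The iNOS-/- fall was at the threshold (limma adjusted p = 0.0499) and was not called in 10 of 17 alternative settings. Of all tested probes, 42% had a called interaction.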

How the results depend on the processing

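Over up to 17 alternative settings, 672 values of the 40 IRF log2 differences were computed. Averaging of probes is not among these settings and entered only the numbers of IRF genes called. Of these 601 kept direction and side of the threshold, 46 kept direction but were no longer called, 7 became called (Irf3 in 6 and Irf5 between the M1 groups in 1), and 18 changed sign. All sign changes concerned Irf2, Irf3 or Irf5. Between the M1 groups, Irf2 was −0.056 after neqc and −0.057 after quantile normalization, Irf3 was −0.037 and −0.038, and Irf5 was −0.17 and −0.17. The WT response of Irf2 was 0.0030 after neqc, 0.0030 after quantile normalization, 0.020 with an intercept in the rank-invariant line, and −0.12 to 0.064 when an array was left out (the latter without WT M1 replicate 2). The iNOS-/- response of Irf3 was −0.35 after neqc (adjusted p = 0.0109), −0.35 after quantile normalization (adjusted p = 0.0251), −0.023 with the intercept, and −0.018 to 0.055 when an array was left out (below 0 without iNOS-/- M1 replicate 1 or iNOS-/- unstimulated replicate 2). With an array left out its interaction was −0.12 to 0.047 (above 0 without WT unstimulated replicate 1 or iNOS-/- unstimulated replicate 1) and its WT response −0.029 to 0.14 (below 0 without WT unstimulated replicate 1). The cause was not tested. Calls were also lost for Irf4 in the iNOS-/- response (10 of 17 settings), Irf9 in unstimulated cells (10 of 17), Irf2 between M1 groups (6), the Irf5 interaction (5), Irf2 in unstimulated cells (4), the Irf8 interaction (3), the iNOS-/- response of Irf5 (3), and Irf8 between M1 groups, the Irf2 interaction and the iNOS-/- response of Irf2 (2, 2 and 1). All values of Irf1 and Irf7 kept their calls in the settings run.

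The number of IRF genes called ranged from 4 to 8 over all comparisons and settings. With an array left out, the number of probes called was 3134 to 4881 for the WT response (4869 with all arrays) and 2728 to 4448 in unstimulated cells (4459 with all). The former moved by over 1.5 times without WT unstimulated replicate 1 or 2 or WT M1 replicate 2, and the latter without any of the 4 unstimulated arrays. The cause was not tested. The share of calls that were higher in the WT response was 59.3%, and between 44.4 and 65.4% in other settings. An intercept in the rank-invariant line moved the median of all tested probes to 0.24 between the M1 groups and to 0.33 in the interaction, so changes there are relative to it.

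Replicates with the same number did not deviate together after scaling (correlations from −0.04 to 0.02). Scaling removes shifts common to a whole array, so this does not settle whether they share a mouse, culture or batch. With the replicate block 7 IRF genes were called in the interaction.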
